A study of Mus musculus with 9 samples.

Results

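The 10 genes described here encode the adaptor STING (Sting1), its kinases (Tbk1, Ikbke), the transcription factors that the pathway activates (Irf3, Irf7), the adaptor of the parallel RNA pathway (Mavs), and proteins that handle nucleic acids or cyclic dinucleotides upstream of STING (Trex1, Samhd1, Enpp1, Ifi204). They were taken as the rows of the deposited mouse table whose gene name was one of these symbols, and all 10 were found among 32593 rows. RNA-seq was done on whole mouse kidney, in 9 libraries. The 3 libraries of the CDH16KO-AngII group had the genotype CDH16 Cre+/Tmemfl/fl, the 3 of the GRPR-AngII group had CDH16 Cre+/GRPRfl/fl, and the 3 of the AngII group had Tmemfl/fl without Cre. All 9 came from mice given AngII (angiotensin II, a pressor peptide), so no value here describes the effect of AngII itself. Strain, age, dose and duration were not given in the sources used here.

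The Cdh16 promoter drives Cre in kidney tubule epithelium, so vessel, stromal, glomerular and immune cells of the same kidneys keep the floxed allele. The labels write only Tmem. The title of the series names STING, and Sting1 was formerly called Tmem173. The floxed exons were not given in the sources used here. CDH16KO-AngII and AngII differ in Cre itself beside any deletion, and GRPR-AngII and AngII differ in Cre and in the floxed allele. Both comparisons share the AngII libraries. CDH16KO-AngII and GRPR-AngII both carry Cre and differ in the floxed allele, so effects of either allele cannot be told apart in that comparison. Grpr is not analysed here.

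As background, double-stranded DNA in the cytosol activates the enzyme cGAS, which makes the cyclic dinucleotide cGAMP. STING in the endoplasmic reticulum binds cGAMP, moves to the Golgi and recruits TBK1 and IKK epsilon, which phosphorylate IRF3 and so switch on type I interferon genes. Double-stranded RNA reaches the same kinases through RIG-I, MDA5 and MAVS on mitochondria. In kidney, STING is found in immune and endothelial cells and in tubule epithelium, where mitochondrial DNA that leaks from injured tubules can activate it. STING activity is set largely by cGAMP and phosphorylation, which RNA levels do not measure.

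Library totals were 40731748 to 60449117 counts, and mitochondria-coded genes took 16.1% to 26.4% of them. Tubule markers dominated every library, with a summed FPKM (fragments scaled to transcript length and library size) of 8 proximal tubule markers between 24430 and 44249. Immune markers differed between libraries of 1 group. Summed FPKM of 11 macrophage and dendritic cell markers was 132, 161 and 235 in CDH16KO-AngII libraries 1, 2 and 3, 237, 222 and 156 in GRPR-AngII, and 265, 142 and 277 in AngII. Cd74 alone was at a minimum of 87.8 and a median of 167 FPKM in AngII, so this sum leans on Cd74. AngII library 2 was the lowest AngII library for 11 of 11 macrophage and dendritic markers, 6 of 6 T and NK cell markers, 5 of 5 stromal markers and 3 of 3 podocyte markers, against 29.8% of all genes tested. It was the lowest for 0 of 4 B cell markers, 2 of 7 endothelial markers and 0 of 8 proximal tubule markers. No marker of any list was at 0. In whole tissue, fewer cells of a type and less RNA per cell cannot be told apart. Whether libraries stand for separate animals is not stated in the labels, so p-values cover only spread between libraries, which may be technical.

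On the scale per transcript length, the transcription factor and the RNA-pathway adaptor were the most abundant of the 10, and STING itself was among the 3 least abundant by the mean over all libraries. Irf3 averaged 20.1 FPKM over the 9 libraries (range 15.2 to 26.3) and Mavs 12.35 FPKM (8.95 to 17.2). Irf7 followed at 4.94 FPKM and Tbk1 at 4.12 FPKM. Their ranges of 2.79 to 8.14 and 3.19 to 4.84 FPKM overlapped, so their order did not exceed the spread. Samhd1, Enpp1 and Trex1 lay together at 2.15, 1.94 and 1.92 FPKM, with ranges that overlapped throughout. Sting1 averaged 0.892 FPKM (0.55 to 1.70), Ifi204 0.656 FPKM (0.35 to 1.18) and Ikbke, the second STING kinase, 0.502 FPKM (0.31 to 0.65), again with overlapping ranges. The place of Sting1 was not the same in every library. In AngII library 1 it stood at 1.37 FPKM, above Ifi204 (1.18 FPKM) and Enpp1 (1.17 FPKM), and in AngII library 3 at 1.70 FPKM, level with Trex1 (1.68 FPKM). The mean FPKM of Tbk1 was above that of Ikbke in all 3 groups, and their ranges lay apart. Irf3 and Mavs held the first and second place by group mean in all 3 groups, but their ranges overlapped, and in AngII library 1 Mavs (15.52 FPKM) was level with Irf3 (15.19 FPKM).

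**Figure D1:**
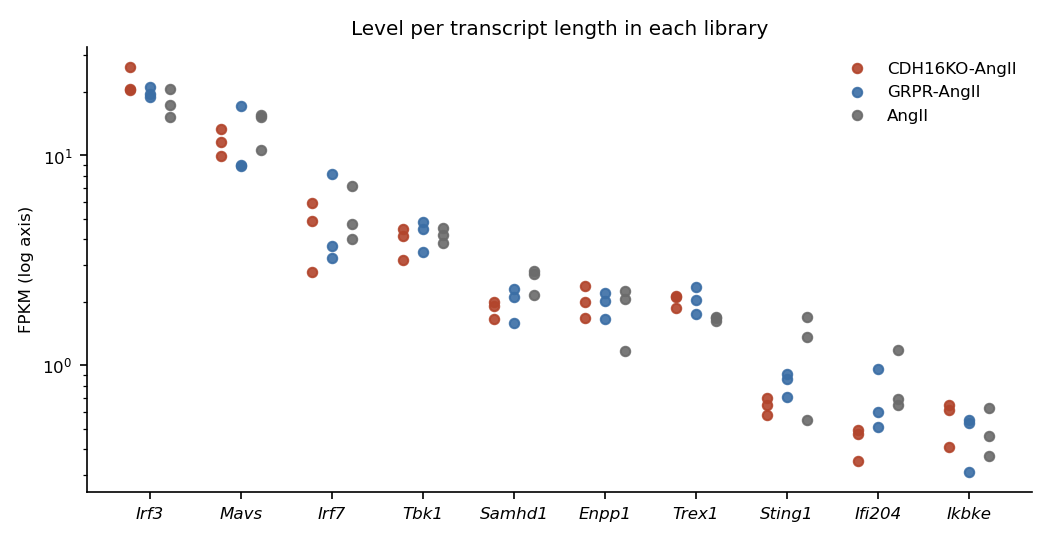
Deposited FPKM (log axis) of the 10 genes, ordered by their mean over 9 libraries, with 1 point per library and 3 libraries each for CDH16KO-AngII, GRPR-AngII and AngII. Irf3 and Mavs stand above the rest at means of 20.1 and 12.35 FPKM, and Sting1, Ifi204 and Ikbke lie lowest, at 0.892, 0.656 and 0.502 FPKM.

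None of the 10 genes passed the threshold of an adjusted p of 0.05 in any comparison by edgeR's quasi-likelihood test over 20110 genes. In CDH16KO-AngII against AngII, where 0.0945% of all genes were called, 4 of the 10 had an unadjusted p under 0.05, namely Sting1, Ifi204, Samhd1 and Irf3, against 7.84% of all genes. The ranges of the 3 against 3 libraries lay apart for 4 of the 10, Ifi204, Samhd1, Irf3 and Trex1, against 12.2% of all genes. The 10 were chosen with earlier results of these data known, so these counts are no test of the 10 as a set. In GRPR-AngII against AngII, where 0% of genes were called (smallest edgeR adjusted p 0.11, 47 genes by DESeq2), none of the 10 had an unadjusted p under 0.05 or ranges apart, against 6.01% and 12.6% of all genes. In CDH16KO-AngII against GRPR-AngII, where 0.0746% of genes were called, none of the 10 had an unadjusted p under 0.05, against 6.39%. The ranges lay apart for Sting1 alone, against 10.7% of all genes. Without AngII library 1, none of the 10 had an unadjusted p under 0.05 in CDH16KO-AngII against AngII, and 4.89% of all genes did.

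**Figure D2:**
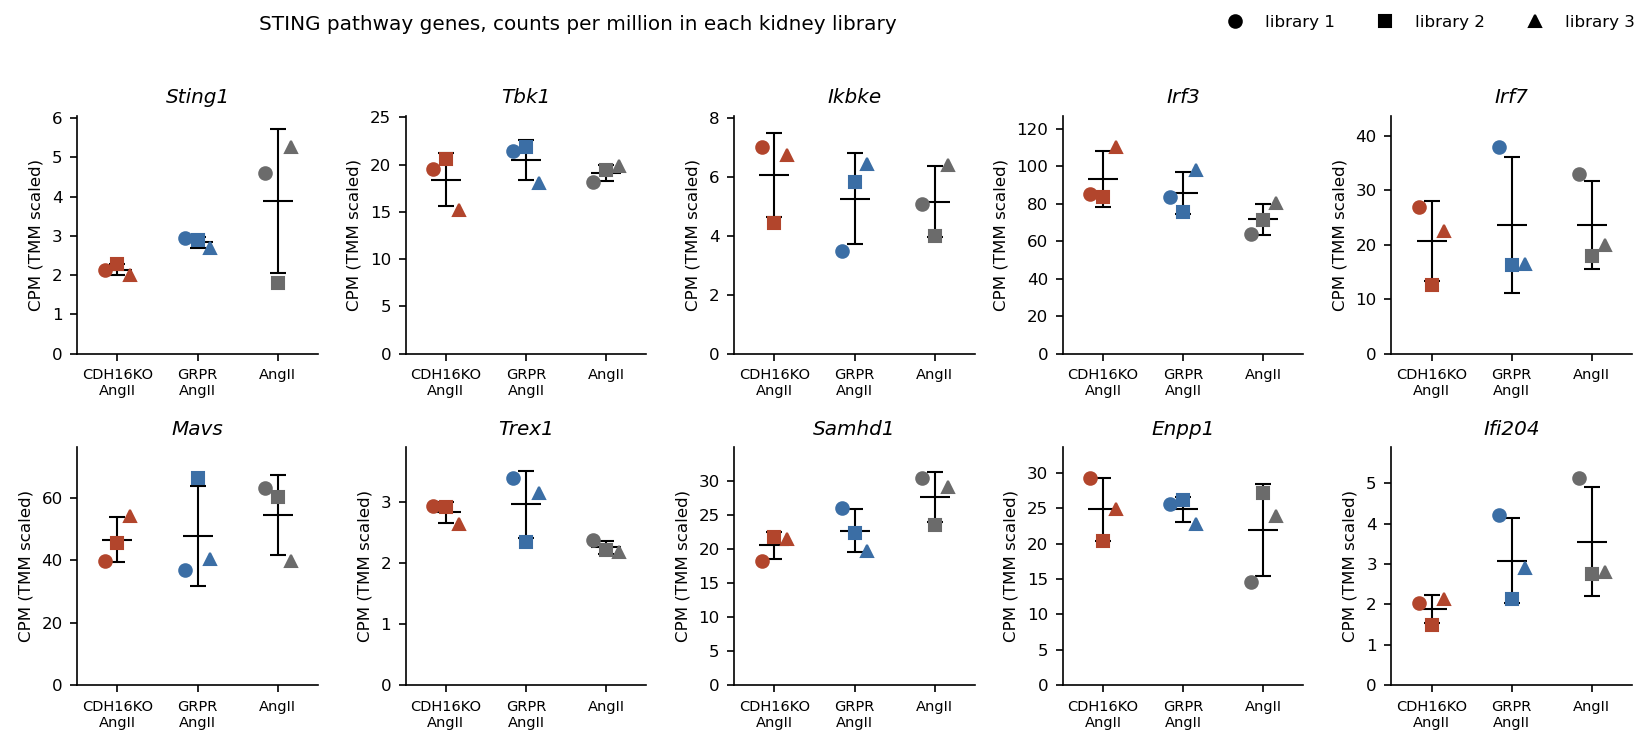
CPM (counts scaled to library size with TMM factors, axes from 0) of the 10 genes in each library, with the mean and SD (bars) of 3 libraries per group. AngII library 2 (square) lies below the other AngII libraries for Sting1, at 1.79 against 4.60 and 5.27 CPM, and AngII library 1 (circle) lies above the others for Ifi204.

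Sting1 was the gene to which the floxed allele points, so its values also bear on the labels. The gene (ENSMUSG00000024349) lies on the minus strand at chr18:35733679-35740489 of GRCm38. Sting1 stood at 2.14, 2.28 and 1.99 CPM in the CDH16KO-AngII libraries, 2.93, 2.90 and 2.68 CPM in the GRPR-AngII libraries, and 4.60, 1.79 and 5.27 CPM in the AngII libraries. The CDH16KO-AngII libraries lay close together and below every GRPR-AngII library. They lay inside the AngII range, because AngII library 2 was the lowest of all 9.

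These CPM values rest on 96 to 127 counts in CDH16KO-AngII, 119 to 180 in GRPR-AngII and 94 to 259 in AngII. The exact 95% Poisson interval of AngII library 2, which covers counting error only, was 1.45 to 2.19 CPM. It did not reach those of AngII libraries 1 and 3, which began at 4.06 and 4.61 CPM. The spread within the AngII group therefore exceeded counting error, and it was far larger than that of the other groups (SD 0.146 CPM in CDH16KO-AngII, 0.138 in GRPR-AngII and 1.84 in AngII, n = 3 each).

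Against AngII, the log2 fold change of Sting1 in CDH16KO-AngII was -0.86 (SE 0.36, 95% interval -1.64 to -0.08, edgeR adjusted p = 0.604), or 0.551 times the AngII level. Against GRPR-AngII it was -0.41 (interval -1.19 to 0.38, edgeR adjusted p = 0.982). GRPR-AngII against AngII gave -0.45 (interval -1.23 to 0.32, edgeR adjusted p = 0.857). The threshold was missed in each, so a lower Sting1 level in CDH16KO-AngII was not established, and the intervals do not show equal levels either. Without AngII library 2 the value against AngII was -1.20 with ranges apart, as for 19.2% of all genes, and the edgeR adjusted p was 0.261. Without AngII library 3 it was -0.58. GRPR-AngII against AngII gave -0.80 without AngII library 2 and -0.16 without AngII library 3. The difference from GRPR-AngII stayed between -0.46 and -0.36 whichever library was left out.

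Genes with a pattern like that of Sting1 across libraries included immune genes. By Pearson r of log2 CPM over the 9 libraries, the 5 genes most like Sting1 among 11966 were mt-Th, a mitochondrial tRNA counted at under 1 CPM (r = 0.898), Scnn1b, a subunit of the epithelial sodium channel (0.897), Mpeg1, a perforin of macrophages (0.888), Hcls1, a signalling protein of blood cells (0.883), and Ccl19, a chemokine (0.877). These libraries share their groups and depths, and the 5 were picked as the highest of many, so r is a description. Mpeg1 stood at 11.7, 11.4 and 10.3 CPM in CDH16KO-AngII, 26.9, 16.9 and 15.3 in GRPR-AngII, and 24.2, 11.2 and 28.0 in AngII. Like Sting1, Mpeg1 was low in AngII library 2 and in all 3 CDH16KO-AngII libraries. The macrophage and dendritic list did not follow Sting1 within CDH16KO-AngII, since library 3 was the highest of that group for 10 of 11 markers and the lowest for Sting1. The macrophage and dendritic list had 10 of 11 markers negative in CDH16KO-AngII against AngII (median log2 fold change -0.54), 3 of them with an unadjusted p under 0.05 and none called, beside a median of 0.01 and a share of 7.84% over all genes. The T and NK list had 6 of 6 negative (median -0.69), and the B cell list 1 of 4 (median 0.24), beside 9782 of 20110 genes. Outside immune cells, 7 of 8 proximal tubule, 2 of 7 endothelial and 1 of 5 stromal markers were negative. In GRPR-AngII against AngII 9 of 11 macrophage and dendritic and 5 of 6 T and NK markers were negative. The part of immune cell content in the Sting1 values was not tested.

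**Figure D3:**
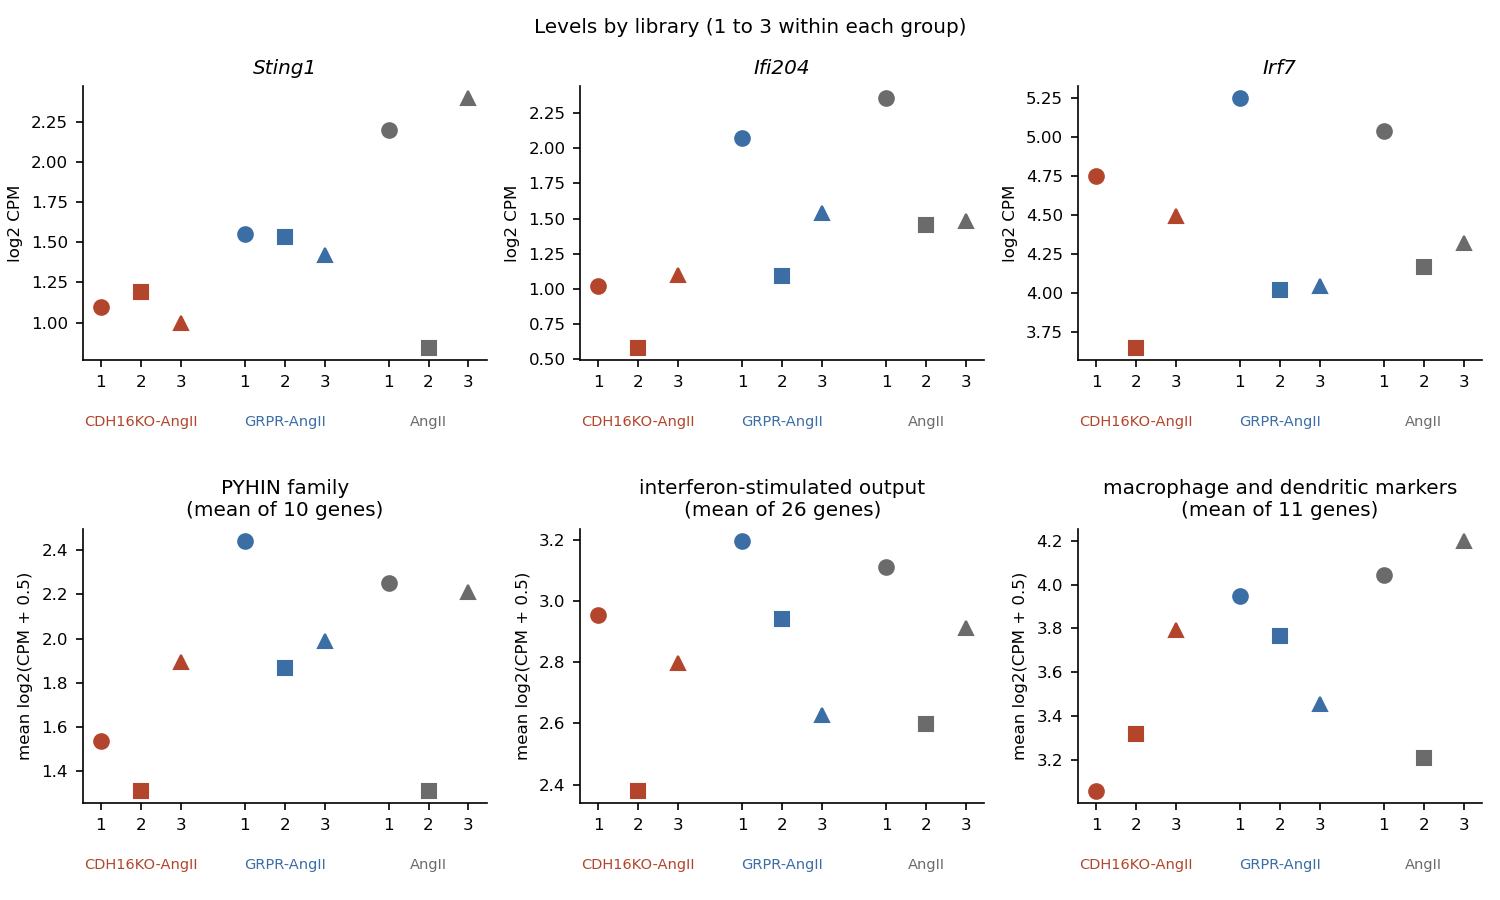
Level in each library (1 to 3 within each group) of Sting1, Ifi204 and Irf7 as log2 CPM, and of the PYHIN, interferon-stimulated and macrophage lists as the mean log2(CPM + 0.5) over their genes; the axes do not start at 0. AngII library 2 lies low for Sting1, the PYHIN list (1.31) and the macrophage list (3.21), and Irf7 is highest in library 1 of every group.

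Neither kinase separated the groups. Tbk1, which phosphorylates STING and IRF3, stood at 19.5, 20.6 and 15.2 CPM in CDH16KO-AngII, 21.5, 21.9 and 18.1 in GRPR-AngII, and 18.2, 19.4 and 19.8 in AngII. All ranges overlapped, and CDH16KO-AngII library 3 was the lowest of the 9. Tbk1 had the narrowest interval of the 10 against AngII, at a log2 fold change of -0.06 (interval -0.40 to 0.29) in CDH16KO-AngII and 0.10 (interval -0.25 to 0.44) in GRPR-AngII. The edgeR adjusted p was 0.945 in CDH16KO-AngII. Tbk1 lies at chr10:121546455-121586787 on the minus strand of GRCm38.

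Ikbke, the gene of IKK epsilon, which can act beside TBK1, stood at 7.03, 4.44 and 6.74 CPM in CDH16KO-AngII, 3.50, 5.84 and 6.44 in GRPR-AngII, and 5.10, 3.98 and 6.41 in AngII. The libraries of all 3 groups were interleaved. Its log2 fold changes were 0.23 (interval -0.41 to 0.87) in CDH16KO-AngII and 0.03 (interval -0.61 to 0.67) in GRPR-AngII against AngII. With intervals this wide, a moderate change of Ikbke was not detectable. On the gene (chr1:131254343-131279606, minus strand), antisense genes overlap 159 and 65 exon bases, and the strand setting of the counts was not given in the sources used here.

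Irf3, the transcription factor that STING and TBK1 activate, stood at 85.2, 83.8 and 110.3 CPM in CDH16KO-AngII, 83.5, 75.6 and 98.2 in GRPR-AngII, and 63.8, 71.1 and 80.4 in AngII. Every CDH16KO-AngII library was above every AngII library, with little room between them. The fitted log2 fold change was 0.38 (SE 0.163, interval 0.02 to 0.73, unadjusted p = 0.041, edgeR adjusted p = 0.618). In GRPR-AngII it was 0.26 (interval -0.10 to 0.61, edgeR adjusted p = 0.833), with overlapping ranges. On the deposited FPKM scale, which lacks the TMM factor, the lowest CDH16KO-AngII library (20.58 FPKM) was below the highest AngII library (20.82 FPKM). The separation of Irf3 thus depended on the scaling.

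The highest Irf3 levels were in CDH16KO-AngII library 3 and GRPR-AngII library 3, which also had the highest mitochondrial shares, 26.4% and 24.6%. The AngII group went the other way. AngII library 1 had the highest share of that group, 21.5%, and the lowest Irf3 level of all libraries, 63.8 CPM. AngII library 3 had a share of 17.4% and the highest Irf3 level of that group, 80.4 CPM. A link between Irf3 and the mitochondrial share was not tested. Without mitochondria-coded genes the log2 fold change of Irf3 in CDH16KO-AngII against AngII was 0.36. It was 0.24 without CDH16KO-AngII library 3. The gene (chr7:44997648-45002848, plus strand, GRCm38) shares 2.56% of its exon bases with Bcl2l12 on the opposite strand.

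Irf7, the interferon-inducible factor that amplifies the response, varied more between libraries than between groups. It stood at 26.8, 12.5 and 22.5 CPM in CDH16KO-AngII, 37.9, 16.2 and 16.5 in GRPR-AngII, and 32.9, 17.9 and 19.96 in AngII. Library 1 was the highest of each group. Fitted log2 fold changes were -0.19 (interval -1.02 to 0.63, edgeR adjusted p = 0.916) in CDH16KO-AngII and -0.00 (interval -0.83 to 0.82, edgeR adjusted p = 0.999) in GRPR-AngII. The sign in CDH16KO-AngII turned without CDH16KO-AngII library 2 (0.06) and without AngII library 1 (0.12). Irf7 lies at chr7:141262706-141266481 on the minus strand and shares 1.19% of its exon bases with Phrf1 on the opposite strand.

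Promoter letters are shown for Irf7 and Samhd1, the interferon-inducible factor and the gene with the smallest unadjusted p of the 10. They are RefSeq sequence of GRCm38.p6, read 5′ to 3′ on the minus strand of each gene and cut to the stretch upstream of any GENCODE M21 exon, at chr7:141266482-141266674 for Irf7 and chr2:157135266-157135346 for Samhd1. The capitals mark the one match to the interferon-gamma-type core TTCNNNGAA.
Irf7: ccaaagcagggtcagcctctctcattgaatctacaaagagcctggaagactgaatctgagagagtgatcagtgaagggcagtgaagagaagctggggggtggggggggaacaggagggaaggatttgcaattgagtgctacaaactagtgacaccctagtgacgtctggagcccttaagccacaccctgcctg
Samhd1: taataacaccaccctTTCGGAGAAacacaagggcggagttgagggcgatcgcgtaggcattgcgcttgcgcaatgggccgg

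The RefSeq promoter table held 9 windows for 8 of the 10 genes, each from 250 bases before to 50 after the start. TTCNNNGAA, searched on both strands, occurred in 1 of the 9 windows, that of Samhd1 at positions -235 to -227 from the start, and in 8.3% of 32851 windows of all genes. The core of the interferon-stimulated response element, a GAAA followed by any 2 bases and another GAAA, was in 0 of the 9 on either strand and in 3.44% of all windows. This says only which letters these windows hold.

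Mavs, the mitochondrial adaptor of RNA sensing, stood at 39.8, 45.6 and 54.2 CPM in CDH16KO-AngII, 36.9, 66.2 and 40.2 in GRPR-AngII, and 63.3, 60.1 and 39.7 in AngII. Single libraries of the same group differed by more than the group means. GRPR-AngII library 2 was the highest of all 9, and AngII library 3 was level with the lowest GRPR-AngII libraries. Fitted values were log2 fold changes of -0.22 (interval -0.76 to 0.31, edgeR adjusted p = 0.847) in CDH16KO-AngII and -0.19 (interval -0.72 to 0.35, edgeR adjusted p = 0.923) in GRPR-AngII against AngII. Mavs lies at chr2:131234063-131248025 on the plus strand.

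Trex1, the exonuclease that degrades cytosolic DNA before it reaches cGAS, stood at 2.94, 2.91 and 2.63 CPM in CDH16KO-AngII, 3.38, 2.33 and 3.15 in GRPR-AngII, and 2.38, 2.21 and 2.18 in AngII. All CDH16KO-AngII libraries were above all AngII libraries, while GRPR-AngII library 2 lay inside the AngII range. In CDH16KO-AngII the log2 fold change was 0.32 (interval -0.23 to 0.87, edgeR adjusted p = 0.776), and in GRPR-AngII it was 0.39 (interval -0.16 to 0.94, edgeR adjusted p = 0.833). The values rest on 97 to 166 counts.

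All exon bases of Trex1 (chr9:109057933-109059734, minus strand) also lie in exons annotated to Atrip on the same strand, so reads of Trex1 and Atrip cannot be told apart with certainty. Atrip, a DNA damage signalling gene, was at 16.5, 12.9 and 20.4 CPM in CDH16KO-AngII, 15.1, 14.7 and 17.7 in GRPR-AngII, and 19.8, 15.2 and 18.1 in AngII. The Atrip levels of all 3 groups were interleaved, also between CDH16KO-AngII and AngII, where those of Trex1 lay apart.

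Samhd1, the phosphohydrolase that depletes deoxynucleotides and limits stray DNA at stalled forks, stood at 18.3, 21.8 and 21.6 CPM in CDH16KO-AngII, 26.0, 22.4 and 19.7 in GRPR-AngII, and 30.4, 23.5 and 29.1 in AngII. Every CDH16KO-AngII library was below every AngII library, with AngII library 2 the nearest. The log2 fold change was -0.43 (SE 0.161, interval -0.78 to -0.08, unadjusted p = 0.021, edgeR adjusted p = 0.554). It ranked 779 of 20110 genes by p. It stayed between -0.53 and -0.36 whichever library was left out. GRPR-AngII was between the other groups at -0.28 (interval -0.64 to 0.07, edgeR adjusted p = 0.832), and its ranges overlapped those of both. The gene lies at chr2:157097533-157135265 on the minus strand of GRCm38 and overlapped no other annotated exon.

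Enpp1, the ectoenzyme that hydrolyses cGAMP outside the cell, stood at 29.3, 20.4 and 24.9 CPM in CDH16KO-AngII, 25.7, 26.2 and 22.8 in GRPR-AngII, and 14.6, 27.3 and 23.9 in AngII. AngII library 1 was the lowest of the 9, and the others overlapped. Against AngII, the fit gave a log2 fold change of 0.18 for both CDH16KO-AngII (interval -0.30 to 0.67, edgeR adjusted p = 0.861) and GRPR-AngII (interval -0.30 to 0.67, edgeR adjusted p = 0.913). Without AngII library 1 these were -0.04 and -0.04, so the positive sign rested on that library. Enpp1 lies at chr10:24637914-24712159 on the minus strand.

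Ifi204, a PYHIN-family DNA sensor of mouse that acts with STING, had the largest log2 fold change of the 10. It stood at 2.03, 1.49 and 2.14 CPM in CDH16KO-AngII, 4.22, 2.12 and 2.90 in GRPR-AngII, and 5.12, 2.74 and 2.79 in AngII. Every CDH16KO-AngII library was below every AngII library, and GRPR-AngII library 2 lay just inside the CDH16KO-AngII range. In CDH16KO-AngII the log2 fold change was -0.91 (SE 0.352, interval -1.69 to -0.14, unadjusted p = 0.024, edgeR adjusted p = 0.58) against AngII and -0.71 (interval -1.48 to 0.07, edgeR adjusted p = 0.835) against GRPR-AngII. GRPR-AngII against AngII gave -0.21 (interval -0.97 to 0.56). Without AngII library 1, the highest of the 9, the first value was -0.55 (edgeR adjusted p = 0.985).

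Ifi204 (chr1:173747293-173766943, minus strand) has a low level and close relatives. Its values rest on 83 to 288 counts, and 59.3% of its longest transcript has a match of at least 95% identity in Ifi211 and 33.8% in Mndal, so reads may be shared. Ifi211 stood at 1.46, 1.03 and 2.10 CPM in CDH16KO-AngII, 4.66, 1.13 and 2.05 in GRPR-AngII, and 3.29, 1.16 and 2.79 in AngII. Ifi211, like Ifi204, was highest in library 1 of GRPR-AngII and of AngII, but its CDH16KO-AngII libraries overlapped both other groups.

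**Figure D4:**
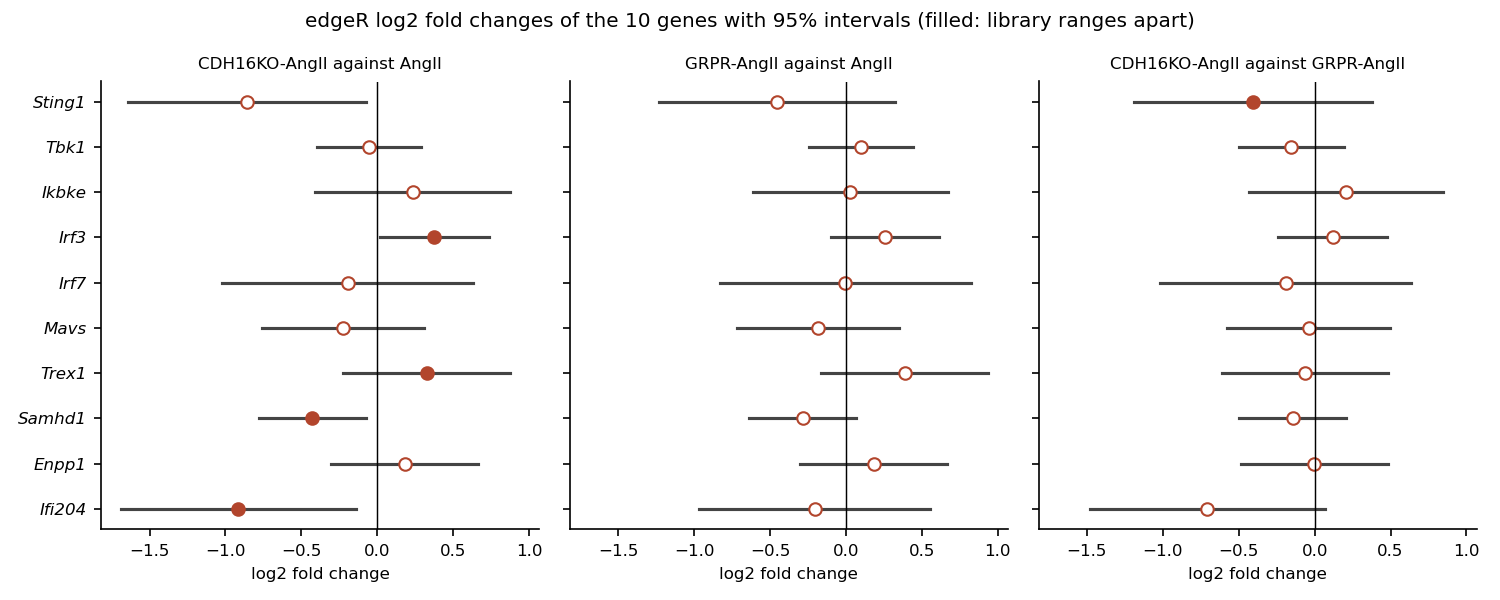
Log2 fold changes of the 10 genes with 95% intervals by edgeR in CDH16KO-AngII against AngII (left), GRPR-AngII against AngII (middle) and CDH16KO-AngII against GRPR-AngII (right); filled points have library ranges apart. The intervals of Sting1 (-1.64 to -0.08), Samhd1 (-0.78 to -0.08), Ifi204 (-1.69 to -0.14) and Irf3 (0.02 to 0.73) leave out 0 in the left panel before any adjustment, and all intervals in the other panels include 0.

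Set side by side, the 10 had 6 negative and 4 positive log2 fold changes in CDH16KO-AngII against AngII (median -0.13, all genes 0.01), 5 and 5 in GRPR-AngII against AngII (median 0.01, all genes -0.01), and 8 and 2 in CDH16KO-AngII against GRPR-AngII (median -0.10, all genes 0.01). No member of any of the 8 companion lists of pathway genes was called in any comparison.

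Upstream of STING, the list of sensing and trafficking genes was centred on 0. Of its 23 tested members 11 were negative and 12 positive in CDH16KO-AngII against AngII (median 0.03), and its medians were 0.01 in GRPR-AngII against AngII and -0.01 in CDH16KO-AngII against GRPR-AngII. Cgas, the enzyme that makes cGAMP, was barely detected, at 0.606, 0.809 and 1.06 CPM in CDH16KO-AngII, 1.22, 0.37 and 0.743 in GRPR-AngII, and 0.764, 0.21 and 0.833 in AngII. Its groups overlapped and its log2 fold change against AngII was 0.45 with an SE of 0.59 in CDH16KO-AngII. Surf4, a cargo receptor that returns STING to the endoplasmic reticulum, averaged 160 ± 28.8 CPM in CDH16KO-AngII, 171 ± 3.09 in GRPR-AngII, and 168 ± 12.5 in AngII (SD, n = 3 each), with log2 fold changes of -0.07 and 0.03 against AngII.

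The list of cyclic dinucleotide transport and breakdown had 8 of 10 tested members negative in CDH16KO-AngII (median -0.32) and 9 of 10 negative in GRPR-AngII (median -0.23) against AngII, comparisons that share the AngII libraries. In each, 1 of the 10 had an unadjusted p under 0.05, near the shares of 7.84% and 6.01% over all genes. Slc19a1, a folate carrier that also imports cyclic dinucleotides, averaged 70.7 ± 14.8 CPM in CDH16KO-AngII, 62.7 ± 3.70 in GRPR-AngII, and 75.7 ± 5.77 in AngII (SD, n = 3 each). Between CDH16KO-AngII and GRPR-AngII the list had 5 negative and 5 positive values (median -0.03).

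Around the kinases, the list of TBK1 and IKK adaptors had 7 negative and 8 positive values of 15 in CDH16KO-AngII against AngII (median 0.02), and 10 negative and 5 positive in GRPR-AngII against AngII (median -0.08). Tank, a scaffold that binds TBK1, had log2 fold changes of -0.19 in CDH16KO-AngII and 0.08 in GRPR-AngII against AngII. Traf3, a ubiquitin ligase upstream of TBK1, averaged 13.2 ± 1.35 CPM in CDH16KO-AngII, 16.9 ± 1.97 in GRPR-AngII, and 14.5 ± 1.09 in AngII (SD, n = 3 each). Between CDH16KO-AngII and GRPR-AngII the list had 5 negative and 10 positive values (median 0.11). Of the 15, 2 had an unadjusted p under 0.05 and 4 had ranges apart, beside 6.39% and 10.7% of all genes. The most negative value of the list in that comparison was that of Traf3, -0.36 on the log2 scale. It did not pass (SE 0.16, edgeR adjusted p = 0.751).

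Among the RNA sensors that signal through MAVS, 8 of 10 tested members were negative in CDH16KO-AngII against AngII (median -0.07) and 7 of 10 in GRPR-AngII against AngII (median -0.06). Ddx58, the gene of RIG-I, averaged 23.3 ± 5.80 CPM in CDH16KO-AngII, 20.7 ± 2.58 in GRPR-AngII, and 21.5 ± 5.20 in AngII. Ifih1, the gene of MDA5, averaged 6.57 ± 0.379 CPM in CDH16KO-AngII, 6.92 ± 1.12 in GRPR-AngII, and 8.20 ± 1.32 in AngII (SD, n = 3 each). Against AngII the Ifih1 value in CDH16KO-AngII was -0.32 on the log2 scale (SE 0.20, edgeR adjusted p = 0.727).

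Beside Trex1 and Samhd1, the nucleic acid disposal list had 8 negative and 6 positive values of 14 tested in each comparison, with medians of -0.11 in CDH16KO-AngII against AngII, -0.01 in GRPR-AngII against AngII and -0.02 in CDH16KO-AngII against GRPR-AngII. The lysosomal nuclease gene Dnase2a had log2 fold changes of 0.03 in CDH16KO-AngII and 0.18 in GRPR-AngII against AngII. Rnaseh2a, a subunit of the enzyme that removes ribonucleotides from DNA, had 0.15 and 0.09. Adar, the editor of double-stranded RNA, had 0.04 and -0.00. All 3 had edgeR adjusted p values of 0.84 or more.

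Downstream, the list of IRF family and interferon receptor genes had 9 negative and 5 positive values of 14 in CDH16KO-AngII against AngII (median -0.14). In CDH16KO-AngII against GRPR-AngII 3 of its 14 members had an unadjusted p under 0.05, beside 6.39% of all genes. Irf9, a transcription factor of the interferon response, averaged 29.1 ± 4.31 CPM in CDH16KO-AngII, 25.7 ± 2.12 in GRPR-AngII, and 26.6 ± 5.44 in AngII (SD, n = 3 each).

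The interferon-stimulated list had 17 of 26 tested members negative in CDH16KO-AngII against AngII (median -0.15), 15 of 26 in GRPR-AngII against AngII (median -0.02) and 18 of 26 in CDH16KO-AngII against GRPR-AngII (median -0.19). Members with an unadjusted p under 0.05 numbered 1, 1 and 4 of the 26, beside 7.84%, 6.01% and 6.39% of all genes, so the first 2 counts were no higher than the share of all genes. Libraries of 1 group differed more than the groups. Mean log2(CPM + 0.5) over the list was 2.95, 2.38 and 2.80 in CDH16KO-AngII libraries 1, 2 and 3, 3.20, 2.94 and 2.63 in GRPR-AngII, and 3.11, 2.60 and 2.91 in AngII. Library 1 was the highest of each group, as it was for Irf7, and held the highest value for 13 of 26 members in CDH16KO-AngII, 19 of 26 in GRPR-AngII and 17 of 26 in AngII, against 28.5%, 32.9% and 31.8% of all genes. Whether library numbers stand for a shared batch is not stated in the labels.

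The PYHIN family, to which Ifi204 belongs, had the medians furthest from 0 of the 8 lists in both comparisons of CDH16KO-AngII. Of 10 tested relatives, 8 were negative against AngII (median -0.59) and 10 were negative against GRPR-AngII (median -0.67), with ranges apart for 1 and 5 of the 10, beside 12.2% and 10.7% of all genes. The count against AngII was near the share of all genes. In GRPR-AngII against AngII 7 of 10 were positive (median 0.25). Mean log2(CPM + 0.5) over the 10 was 1.54, 1.31 and 1.90 in CDH16KO-AngII, 2.44, 1.87 and 1.99 in GRPR-AngII, and 2.25, 1.31 and 2.21 in AngII. AngII library 2 was level with the lowest CDH16KO-AngII library, and the GRPR-AngII libraries overlapped those of CDH16KO-AngII by a small margin.

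The relatives Ifi203 and Mndal lay near 0. Ifi203 averaged 15.9 ± 4.79 CPM in CDH16KO-AngII, 17.8 ± 0.297 in GRPR-AngII, and 15.3 ± 4.19 in AngII, with 0.06 (SE 0.25) as the log2 fold change of CDH16KO-AngII against AngII. Mndal averaged 17.5 ± 6.38 CPM in CDH16KO-AngII, 20.2 ± 4.16 in GRPR-AngII, and 15.6 ± 5.51 in AngII, with 0.16 (SE 0.31) for the same contrast (SD, n = 3 each). PYHIN genes lie in 1 cluster and share sequence, so their counts are not independent of each other. The family was lowest in AngII library 2 for 9 of its 10 tested members, as the macrophage markers were for 11 of 11, against 29.8% of all genes. In CDH16KO-AngII the lists did not go together. Library 2 was the lowest of that group for 9 of 10 PYHIN members but for 2 of 11 macrophage markers, against 38.1% of all genes. The part of immune cell content in the PYHIN values was not tested.

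**Figure D5:**
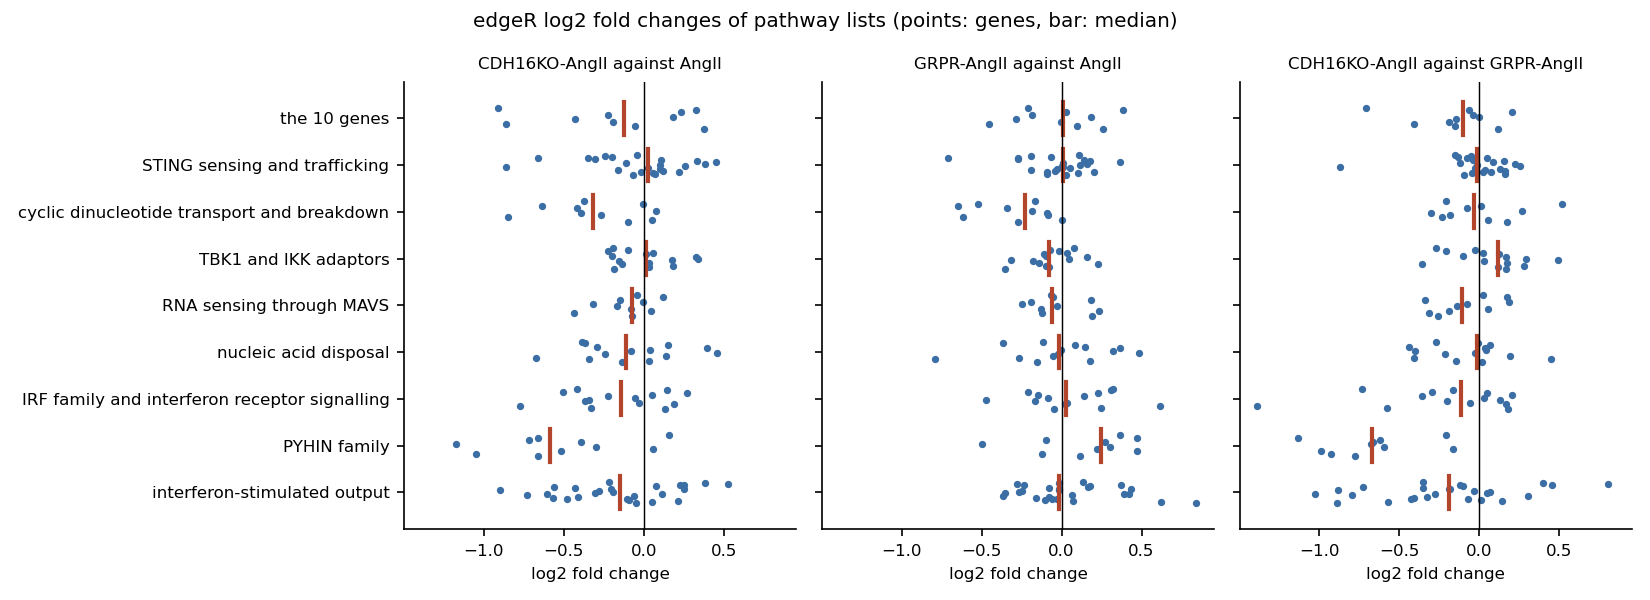
Log2 fold changes by edgeR of the 10 genes and of 8 companion lists (points: genes, bars: medians) in CDH16KO-AngII against AngII (left), GRPR-AngII against AngII (middle) and CDH16KO-AngII against GRPR-AngII (right). Medians lie between -0.32 and 0.03 in the left panel for all lists but the PYHIN family, at -0.59, which is at 0.25 in the middle panel and -0.67 in the right one.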

How the data were processed

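The deposited table gave FPKM values, scaled by the authors to length and library per the file headers, and whole-number counts per gene for 9 libraries. Per the submitters' processing notes the builds were GRCm38 and mm10, and per the labels' protocols total RNA was extracted with a Qiagen kit and made into SMARTER mRNA-Seq libraries. Aligner, counter and strand setting were not given in the sources used here. The deposited count 4 was more frequent than 3 or 5 in every library (799, 631 and 318 genes in AngII library 1), and the counts may be rounded estimates. The length behind each FPKM was divided by 1 factor per library and set against the median of its gene. For genes at FPKM 20 or more it then lay at 0.9997 to 1 (5% to 95% range), so their FPKM holds no isoform information. For Sting1, at a lower FPKM, it lay at 0.9957 to 1.022, and what this spread stands for was not tested. Headers spell CHD16KO where titles have CDH16KO.

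The 10 genes, the companion lists and the markers were chosen with earlier results of these data known. All 9 libraries entered 1 edgeR 4.0.16 quasi-likelihood fit (R 4.3.3, TMM scaling, 1 coefficient per group). The test took the 20110 genes that reached FPKM 0.1 in 3 or more libraries. A filter at FPKM 1 keeps 12507 genes and 7 of the 10, leaving out Sting1, Ifi204 and Ikbke. A call was a Benjamini-Hochberg adjusted p under 0.05. CPM values are the counts scaled to library size with TMM factors. Standard errors came from the fold change and its F. All 10 genes were named in every comparison, with 14 companion genes by role and the 5 most like Sting1. In simulated data for CDH16KO-AngII against AngII, 67, 67 and 66 of 20110 genes, picked at random, were changed 1.5-fold, 2-fold and 4-fold. There edgeR found 0% of the 1.5-fold changes, 20.9% of the 2-fold and 65.2% of the 4-fold changes, and 9 of its 66 calls were false. Recovery was not split by level, so it does not describe genes with low counts apart. A count of 0 allows up to 3 counts, 0.0496 to 0.0737 CPM. Replicates differed far beyond sampling noise (chi-square per gene 54.0 to 248). DESeq2 1.42.0, limma 3.58.1 on log2(FPKM + 1) and log2(FPKM + 0.1), and other settings were alternatives. Sequence shared with other GENCODE M21 transcripts came from BLAST+ 2.17.0.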

Additional observations from a re-analysis of the deposited data

How the results depend on the processing

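None of the 10 genes passed the threshold in any of 561 values under other settings (smallest adjusted p 0.261, Samhd1 without CDH16KO-AngII library 2). Genes called over the whole table moved more. In CDH16KO-AngII against AngII the count was 19 by edgeR, 251 by DESeq2, 30 by limma on log2(FPKM + 1), 44 on log2(FPKM + 0.1), and 0 to 50 when 1 library was left out. In GRPR-AngII against AngII it was 0 by edgeR, 47 by DESeq2, 5 by limma on log2(FPKM + 0.1), and 0 to 2. In CDH16KO-AngII against GRPR-AngII it was 15 by edgeR, 222 by DESeq2, 42 by limma on log2(FPKM + 0.1), 41 without a filter, 8 with only these groups, and 0 to 56. The cause was not tested.

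Of 291 values for the 10 genes that kept every library, 10 turned sign, all at most 0.0649 in size. In GRPR-AngII against AngII, Ikbke was -0.0232 and -0.0649 by limma with 1 and 0.1 added. In CDH16KO-AngII against GRPR-AngII, Enpp1 was 0.0140 with the FPKM 1 filter. It was 0.0236 and 0.0328 by the same limma fits and 0.00576 with the replicate block, where Mavs was 0.0404, 0.0475 and 0.00537. Trex1 was 0.00115 by limma with 0.1 added. Of 270 values without 1 library, 23 turned sign. In CDH16KO-AngII against AngII the ranges were -0.0409 to 0.37 for Enpp1, -0.44 to 0.12 for Irf7 and -0.14 to 0.0647 for Tbk1. In GRPR-AngII against AngII they were -0.0397 to 0.37 for Enpp1, -0.50 to 0.15 for Ifi204, -0.14 to 0.25 for Ikbke and -0.53 to 0.31 for Irf7. In CDH16KO-AngII against GRPR-AngII they were -0.15 to 0.12 for Enpp1, -0.0164 to 0.39 for Ikbke, -0.0212 to 0.23 for Irf3, -0.44 to 0.34 for Irf7, -0.19 to 0.27 for Mavs and -0.21 to 0.0463 for Trex1.

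Deviations of same-numbered libraries correlated at 0.13 to 0.30 in all 6 pairs of numbers 2 and 3, but at -0.12 to 0.0906 in the 3 pairs of number 1, and different-numbered pairs ranged from -0.33 to 0.23. Not every library correlated best with its own number. Pairs of a number 2 with a number 3 correlated at -0.33 to -0.11. The labels do not say that a number marks a shared litter or day, so the numbers were not taken as pairs. Whether libraries of 1 number share a batch was not tested. With a replicate block edgeR called 25, 0 and 20 genes in the 3 comparisons, and Sting1 stood at -0.79 in CDH16KO-AngII against AngII. Counts of mostly 83 to 288 for Sting1, Trex1 and Ifi204, and the spread between AngII libraries, limit what can be seen.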
